A study of Mus musculus with 6 samples.

Results

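The genes described here encode antimicrobial and innate defense proteins of the skin: Lcn2, Chil1, Slpi, the beta-defensins Defb14, Defb1, Defb6 and Defb3, Saa3, Pglyrp1 and Camp. They were taken by name, and for each the RefSeq transcript with the highest base mean, the mean normalized count over the libraries, was read. All 10 had a row in the authors' deposited table, and 9 of the 10 carried an adjusted p-value, among 11035 genes with one in all. RNA sequencing compared primary epidermal keratinocytes of wild type C57BL/6 mouse pups, 1 to 3 days old, that had been transfected with pro-miR-148a with cells given miR-Control, both at 200 nM and collected 48 h after transfection; each group has 3 libraries. Both groups grew in medium with 0.05 mM calcium, a low concentration that keeps keratinocytes dividing and little differentiated. No source used here says whether the libraries of a group came from separate cultures or litters, so the p-values may measure technical spread. In the labels 2 of the 3 miR-148a libraries carry the same index before their replicate number, and whether these come from 1 sample could not be checked without values per library; if they do, the SEs and p-values given here may be too small. A primary culture of this kind holds a mixture of cells, and in bulk RNA fewer cells of a type and less RNA per cell cannot be told apart.

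Keratinocytes make the first chemical barrier of the skin. Beta-defensins and the cathelicidin Camp are small cationic peptides that disrupt microbial membranes, Lcn2 withholds iron by binding bacterial siderophores, and Pglyrp1 binds bacterial peptidoglycan. Slpi inhibits serine proteases such as neutrophil elastase and is itself antimicrobial, Saa3 is an acute-phase apolipoprotein, and Chil1 is a chitinase-like lectin without chitinase activity. Some of these genes are made steadily by resting epithelium, while others are induced by IL-1, IL-17, IL-22 and microbial products through NF-kappaB, STAT3 and C/EBP factors.

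MicroRNAs lower transcripts whose 3' ends pair with their seed, bases 2 to 8. The mature strand that pro-miR-148a supplies is shown with its family because the reading of the fold changes rests on its seed, in capitals, which miR-148b and miR-152 share (RefSeq, GRCm38.p6; miR-148a-3p lies at chr6:51269829-51269850 on the minus strand).
miR-148a-3p: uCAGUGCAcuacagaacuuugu
miR-148b-3p: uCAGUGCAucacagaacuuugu
miR-152-3p: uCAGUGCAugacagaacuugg

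The numerator of the log2 fold changes is not named in the authors' deposited table, whose title puts control before miR-148a. Among tested genes, 405 whose longest 3' untranslated region (UTR) holds TGCACTGA, the seed match followed by A, had a median log2 fold change of 0.107 as deposited, against -0.012 in 6248 genes with no match. The 1045 genes whose best match is TGCACTG had a median of 0.049 as deposited, and the 1514 with only the 6-base core GCACTG had -0.012. Genes with the longer matches thus sat on the positive side as deposited. UTR length was not matched between these classes: its median was 2282 bases in the 405 genes and 729.5 bases in the genes with no match. Rock1, reported as a target of miR-148a in human cells, had 0.26 as deposited (SE 0.09, adjusted p = 0.0106 per the authors' deposited table). The deposited values were therefore read as control over miR-148a, and their signs are turned here, so that a negative log2 fold change is lower with miR-148a. Every direction given for these genes depends on that reading and would reverse with it.

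In this reading 5 of the 9 tested genes fell with miR-148a, 2 rose and 2 did not pass an adjusted p of 0.05 per the authors' deposited table. Among all 11035 tested genes 33.5% passed that threshold, 16.8% lower and 16.7% higher with miR-148a. The 5 that fell were Lcn2, Chil1, Slpi, Defb6 and Defb3, and the 2 that rose were the defensins Defb14 and Defb1. Changes of more than 2-fold were recorded for 4 that fell and for 1 that rose, against 4.49% of all tested genes lower and 2.31% higher by more than 2-fold. The median log2 fold change of the 9 was -0.89 and that of all tested genes -0.01 per the authors' deposited table. The genes were not picked blind to these data, and no test over the group was made. Values per library were not analysed here; the error given is the authors' standard error (SE) of the log2 fold change, and 95% intervals are computed from it.

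**Figure D1:**
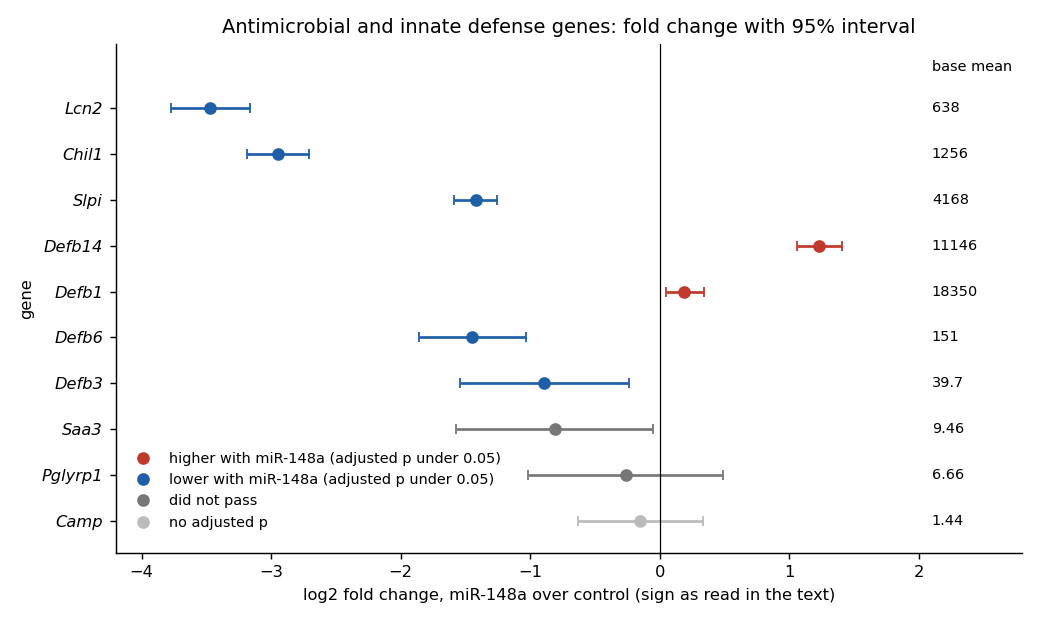
Log2 fold change of each of the 10 genes (horizontal axis, miR-148a over control, sign as read in the text) with its 95% interval from the authors' SE; the base mean is printed at the right. Lcn2 at -3.47 and Chil1 at -2.95 lie farthest to the left, Defb14 at 1.23 farthest to the right, and the intervals of Pglyrp1 and Camp span 0.

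Lcn2, the siderophore-binding lipocalin, had the largest change of the group. It was 11.1-fold lower with miR-148a (95% interval 8.96 to 13.7) at a base mean of 638 per the authors' deposited table (NM_008491, log2 fold change -3.47 ± 0.16 SE, adjusted p = 2.03e-107). Only 1 of the 11035 tested genes had a more negative log2 fold change, which places Lcn2 at rank 2. Chil1, the chitinase-like lectin also known as BRP-39 or YKL-40, was 7.72-fold lower (6.53 to 9.13) at a base mean of 1256 per the authors' deposited table (NM_007695, -2.95 ± 0.12 SE, adjusted p = 4.73e-123). It ranked 11 from the most negative and 17 by p-value. The intervals of both genes lie beyond a log2 fold change of -2.71, so that both changes exceed the error of the authors' fit many times over.

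Slpi, the secreted inhibitor of leukocyte elastase, was counted more deeply than either. It fell 2.68-fold (2.40 to 3.00) with miR-148a at a base mean of 4168 per the authors' deposited table (NM_011414, -1.42 ± 0.08 SE, adjusted p = 1.42e-63). Its interval does not overlap those of Lcn2 and Chil1, and it ranked 228 from the most negative.

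The beta-defensins went both ways. Defb14, the mouse counterpart of human beta-defensin 3, rose 2.35-fold (2.09 to 2.65) with miR-148a at a base mean of 11146 per the authors' deposited table (NM_183026, 1.23 ± 0.09 SE, adjusted p = 1.04e-42). Defb1, the constitutive defensin of many epithelia, had the highest base mean of the 10, 18350, and a rise of 1.14-fold (1.04 to 1.26) per the authors' deposited table (NM_007843, 0.19 ± 0.07 SE, adjusted p = 0.0264). Defb6 fell 2.72-fold (2.05 to 3.62) at a base mean of 151 per the authors' deposited table (NM_054074, -1.45 ± 0.21 SE, adjusted p = 9.71e-11). Defb3 fell 1.85-fold (1.18 to 2.92) at a base mean of 39.7 per the authors' deposited table (NM_013756, -0.89 ± 0.33 SE, adjusted p = 0.0264). The intervals of Defb14 and of Defb6 lie on opposite sides of 0 and far apart, while those of Defb6 and Defb3 overlap. Defb1 and Defb3 passed with the same adjusted p although their base means and changes differ widely: the defensin with the small rise was estimated tightly and the one with the larger fall loosely. Neither call holds at an adjusted p of 0.01.

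The remaining 3 genes were barely counted. Saa3 had a log2 fold change of -0.81 ± 0.39 SE at a base mean of 9.46 per the authors' deposited table (NM_011315, adjusted p = 0.102), with an interval from -1.57 to -0.05. Pglyrp1 had -0.26 ± 0.38 SE at a base mean of 6.66 per the authors' deposited table (NM_009402, adjusted p = 0.682), and its interval of -1.02 to 0.49 allows a change of up to about 2-fold in the lower direction. Camp, at a base mean of 1.44, was under the lowest base mean to which the authors gave an adjusted p, 3.56, and its log2 fold change was -0.15 ± 0.24 SE per the authors' deposited table (NM_009921, unadjusted p = 0.538). No SE in the table exceeds 0.39 even at such depths, as in a fit that pulls the fold changes of low counts toward 0, so their size says little. At base means of 1000 or more the median SE was 0.08.

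**Figure D2:**
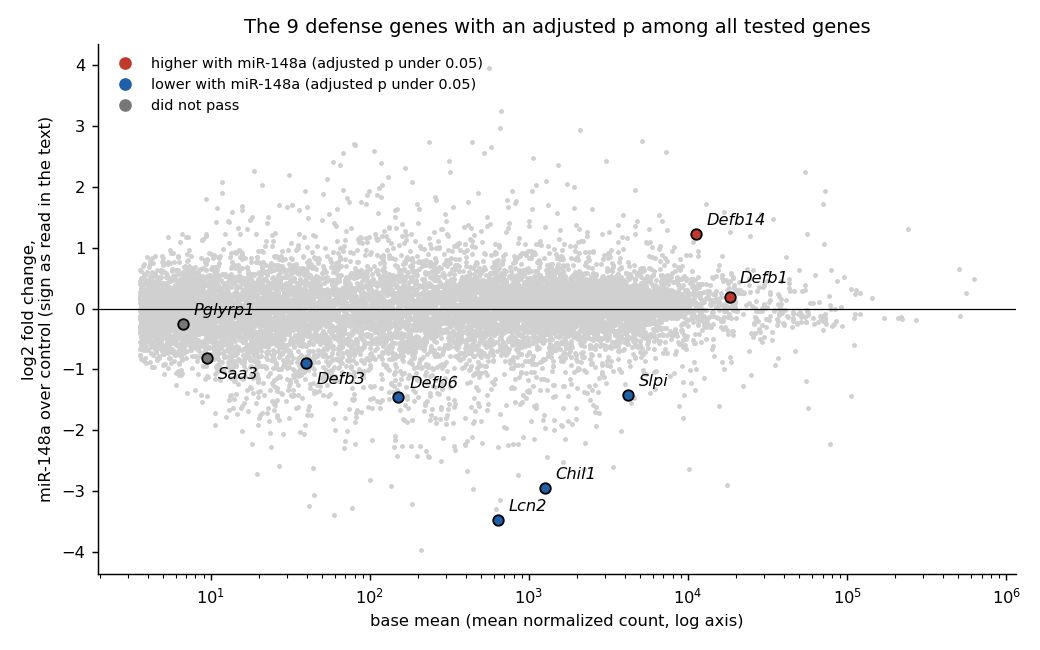
Log2 fold change (vertical axis, miR-148a over control, sign as read in the text) against base mean (horizontal log axis) for the 11035 tested genes in grey and the 9 tested defense genes as named, coloured points. Lcn2 and Chil1 sit at the lower edge of the cloud, Defb14 and Defb1 in its right part above 0.

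Where Slpi lies on its chromosome, genes of the same protein family were also lower. Slpi stands in a stretch of genes for small secreted proteins with WAP (whey acidic protein) domains, and from Wfdc5 to Wfdc3 the RefSeq gene order holds 32 protein-coding genes, 20 of them listed at 0 and 10 tested; the stretch was examined after its values were seen. Besides Slpi, the WAP genes Wfdc5 (-1.97 ± 0.12 SE, base mean 714), Wfdc12 (-2.23 ± 0.28 SE, base mean 80.9) and Wfdc3 (-0.99 ± 0.19 SE, base mean 248) fell with miR-148a per the authors' deposited table. Wfdc2, also known as HE4, rose 4.08-fold (2.03 ± 0.24 SE, base mean 120, adjusted p = 1.28e-15) per the authors' deposited table. The other 5 tested genes of the stretch did not pass; Sdc4, which encodes the heparan sulfate proteoglycan syndecan 4 and lies 3 places after Slpi, had 0.16 ± 0.07 SE per the authors' deposited table (adjusted p = 0.0625). All 5 WAP genes tested in the stretch therefore passed, 4 lower and 1 higher. The falls were not confined to the stretch. Wfdc18, which lies outside it, also fell per the authors' deposited table (-1.42 ± 0.33 SE, base mean 35.4) and was named after its value was seen. Wfdc17 and Wfdc21, also outside it, had no adjusted p.

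Defb14, Defb6 and Defb3 are themselves neighbours, in a row that was also examined after its values were seen. Within the 8 protein-coding genes from Defb14 to Defb7, Defb14 is followed by Defb4, Defb6, Defb46, Defb5, Defb3 and Defb8. Defb4, an inducible defensin next to Defb14, fell 1.25-fold with miR-148a per the authors' deposited table (-0.32 ± 0.12 SE, base mean 1274, adjusted p = 0.0236). Defb5, between Defb6 and Defb3, had -0.15 ± 0.36 SE at a base mean of 5.05 per the authors' deposited table (adjusted p = 0.813). Of the 5 tested genes in this row Defb14 alone rose and 3 fell. Defb1 heads a separate row of 9 genes, of which it is the only one with an adjusted p, and the serum amyloid neighbours of Saa3, Saa1 and Saa2, were listed at 0, as was Chit1, the chitinase gene beside Chil1, per the authors' deposited table. A gene listed at 0 is not thereby shown to be silent, since transcripts of genes with several RefSeq entries are often at 0 in this table.

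**Figure D3:**
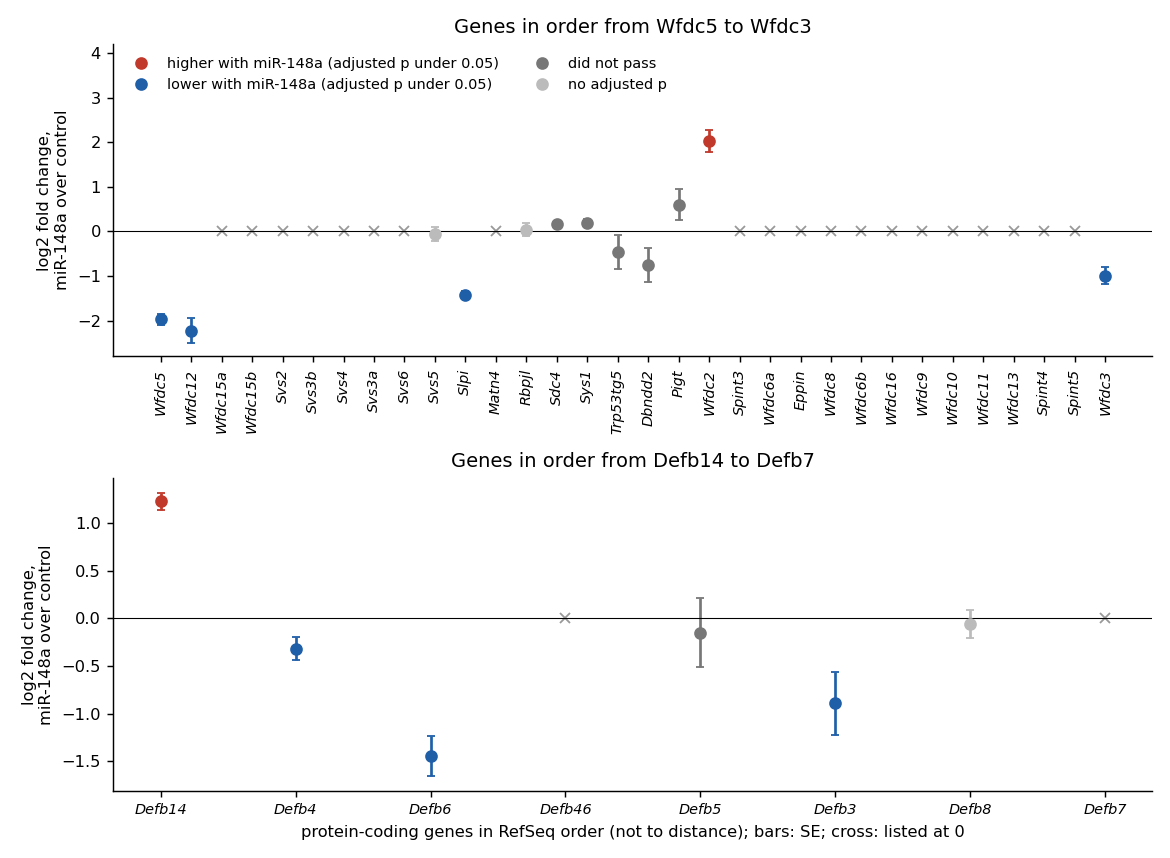
Log2 fold change (vertical axis, miR-148a over control, bars SE) of protein-coding genes in RefSeq order, not to distance, from Wfdc5 to Wfdc3 (top) and from Defb14 to Defb7 (bottom); crosses are genes listed at 0. Wfdc5, Wfdc12, Slpi and Wfdc3 are below 0 and Wfdc2 is at 2.03; Defb14 is above 0 and Defb4, Defb6 and Defb3 are below it.

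Sequence similarity matters for the defensins because how reads were counted is not known here, and reads that match 2 paralogs could be split or dropped. The annotated transcripts of Defb3 and Defb6 (GENCODE M21) were 74.1% identical over 270 aligned bases and shared no run longer than 12 bases. Defb3 and Defb5 were 87.3% identical over 204 bases, with a longest shared run of 31 bases. Defb3 and Defb4 were 77.1% identical over 275 bases, with a run of 33, the longest of the transcript pairs compared, and Defb4 had a base mean of 1274 against 39.7 for Defb3 per the authors' deposited table. Defb6 and Defb4 were 82.7% identical over 323 bases, with a run of 26. Defb14 was more distant, at 57.7% identity with Defb4 and 59.4% with Defb1, and shared no run of more than 8 bases with either. The Defb14 transcript compared has 204 bases and no annotated 3' UTR, so similarity in that part was not seen. The values of Defb3, Defb4, Defb5 and Defb6 may be less certain than that of Defb14, but whether shared reads affected any of them was not tested.

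The start regions of Defb3 and Defb6, both lower with miR-148a, were 83.5% identical over 285 aligned bases, with a shared run of 60 bases. The start regions of Defb3 and Defb5 were 86.7% identical over 285 bases, with a longest shared run of 26 bases. At its base mean of 5.05 Defb5 had a 95% interval of -0.86 to 0.55, which overlaps that of Defb3. Whether the start regions bear on the changes was not tested. The regions of Defb3 and Defb6 are printed for that comparison, together with those of Lcn2 and Chil1, the genes that fell most. Each runs from 250 bases before to 50 bases after the annotated start (RefSeq, GRCm38.p6) and is written in the direction of the gene: Lcn2 from chr2:32387690-32387989 on the minus strand, Chil1 from chr1:134181906-134182205, Defb6 from chr8:19225228-19225527 and Defb3 from chr8:19293111-19293410 on the plus strand. Capitals mark matches on either strand to a C/EBP motif, TTNCNNAA, or to the NF-kappaB consensus; no capitals of the 2 motifs overlap.
Lcn2: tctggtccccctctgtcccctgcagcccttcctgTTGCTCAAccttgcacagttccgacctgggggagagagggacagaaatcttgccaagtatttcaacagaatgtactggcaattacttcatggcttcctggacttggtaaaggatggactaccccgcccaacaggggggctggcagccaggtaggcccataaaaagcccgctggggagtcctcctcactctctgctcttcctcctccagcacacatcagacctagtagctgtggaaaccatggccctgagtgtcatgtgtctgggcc
Chil1: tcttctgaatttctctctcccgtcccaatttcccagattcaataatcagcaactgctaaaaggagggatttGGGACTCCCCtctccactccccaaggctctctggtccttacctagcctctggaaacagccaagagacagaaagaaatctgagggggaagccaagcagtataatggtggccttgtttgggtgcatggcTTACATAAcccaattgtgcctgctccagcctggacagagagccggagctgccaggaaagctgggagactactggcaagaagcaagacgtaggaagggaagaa
Defb6: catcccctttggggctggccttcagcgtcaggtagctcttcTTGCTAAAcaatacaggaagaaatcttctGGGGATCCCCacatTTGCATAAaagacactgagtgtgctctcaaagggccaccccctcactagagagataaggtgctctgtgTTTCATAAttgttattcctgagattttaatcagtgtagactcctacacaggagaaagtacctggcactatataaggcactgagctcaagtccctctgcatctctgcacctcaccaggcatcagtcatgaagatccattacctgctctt
Defb3: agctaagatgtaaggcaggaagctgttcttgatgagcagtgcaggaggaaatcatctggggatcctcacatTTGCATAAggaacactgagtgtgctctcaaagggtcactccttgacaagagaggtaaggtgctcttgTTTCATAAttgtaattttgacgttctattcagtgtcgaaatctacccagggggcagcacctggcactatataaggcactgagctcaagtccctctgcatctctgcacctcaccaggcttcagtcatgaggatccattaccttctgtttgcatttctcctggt

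A table of start regions held 8 of the 10 genes, all but Defb14 and Defb1. The C/EBP motif was found in 6 of the 8, against 40.7% of 32851 start regions of the same length, and the NF-kappaB consensus in 3 of the 8, in Defb6, Chil1 and Pglyrp1, against 5.80%. Both C/EBP matches of Defb3 align with matches of Defb6, which holds 3. Lcn2 has 1 C/EBP match, at position -216 from the start, and no match to the NF-kappaB consensus in this window. Neither TTCNNNGAA, a STAT motif found in 8.30% of start regions, nor TATAAA, found in 13.6%, occurs in any of the 8. These matches describe letters in short windows and not factor binding.

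**Figure D4:**
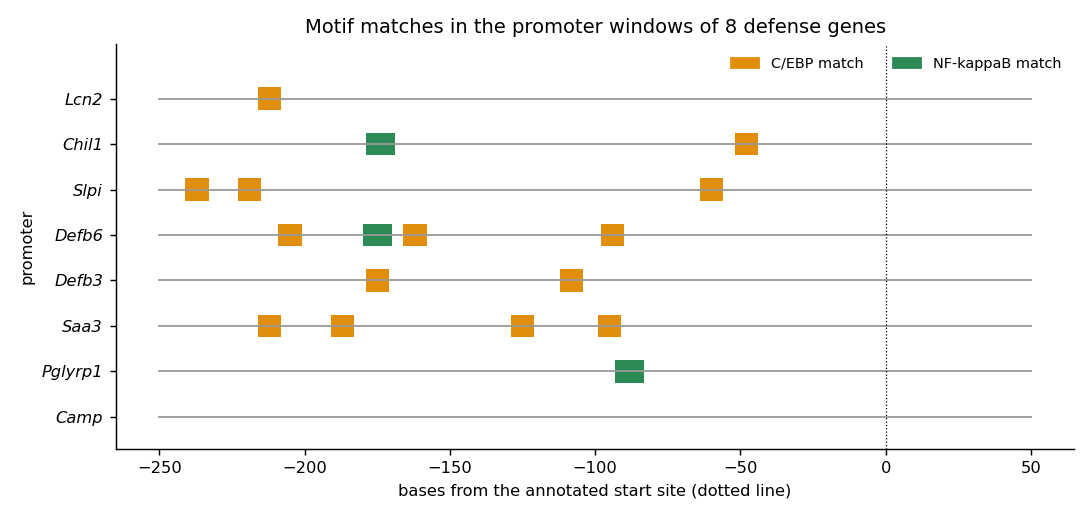
Positions of C/EBP and NF-kappaB motif matches (coloured boxes) in the start regions of 8 defense genes, in bases from the annotated start (dotted line at 0). Saa3 holds 4 C/EBP matches, Slpi and Defb6 hold 3 each, and Camp holds no match to either motif.

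A match to the miR-148a seed was looked for in the 3' UTRs of the genes themselves. In the longest annotated 3' UTR of the 9 genes with one, which ran from 56 to 1956 bases with a median of 232, no 6-base core GCACTG or longer match was found. The annotated Defb14 transcript has no 3' UTR, so it was not searched. Among tested genes whose 3' UTR falls in the same length range, 12.8% hold a match of at least 7 bases, against 21.3% of all tested genes with a 3' UTR, where the median length was 1129 bases. Of all tested genes with a 3' UTR, 63.3% hold no match of 6 bases or more. The length range is wide, with 6852 tested genes, so the share of 12.8% is not matched to the median of 232 bases.

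Of other antimicrobial and acute-phase proteins of epithelia, S100a8 had the smallest adjusted p. Of 53 listed genes 16 had an adjusted p, and 9 of these fell with miR-148a, 1 rose and 6 missed the threshold per the authors' deposited table. By comparison, 16.8% of all tested genes fell and 16.7% rose. The median log2 fold change of the 16 was -0.57. S100a8, a subunit of the metal-chelating alarmin calprotectin, fell 6.24-fold at a base mean of 10198 per the authors' deposited table (-2.64 ± 0.10 SE, adjusted p = 3.50e-161). Wfdc5, Wfdc12, Wfdc3, Wfdc18 and Defb4, given above, are among the 9 that fell, as is the cytokine gene Il1f9. Wfdc2 is the 1 that rose. Pglyrp3, a peptidoglycan-binding protein of the epidermis, had -0.11 ± 0.11 SE at a base mean of 1518 per the authors' deposited table, without passing (adjusted p = 0.507). Il1f9, the gene of the cytokine IL-36 gamma, which induces defensins in keratinocytes, fell 1.93-fold per the authors' deposited table (-0.95 ± 0.07 SE, base mean 4329); it was named after its value was seen. The partner subunit of S100a8, S100a9, was listed at 0 for both of its transcripts, which is not a measure of its absence.

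Genes of partners, receptors and processing proteases of the defense proteins moved in both directions. Their list also holds protease inhibitors, such as Serpinb1a, and genes of iron and heme handling, such as Hmox1. In that list of 33 genes 6 of 16 tested rose, 6 fell and 4 missed the threshold per the authors' deposited table. The median was 0.20. All tested genes had shares of 16.7% higher and 16.8% lower. Of the 4 that missed it, Lgals3 (base mean 42.1) and Tfrc (10.4) were read from low rows of genes with more than 1 transcript. The kallikrein proteases Klk5 and Klk7, which process human cathelicidin in skin, fell 6.23-fold (-2.64 ± 0.09 SE, base mean 2225) and 4.70-fold (-2.23 ± 0.07 SE, base mean 78217) per the authors' deposited table. Klk14, another kallikrein of the skin surface, rose 1.86-fold per the authors' deposited table (0.89 ± 0.11 SE, base mean 706); it was named after its value was seen. Serpinb1a, an inhibitor of neutrophil serine proteases, fell 2.43-fold per the authors' deposited table (-1.28 ± 0.33 SE, base mean 247), with a large SE for its depth. Hmox1, the heme-degrading enzyme that releases iron, rose 2.39-fold at a base mean of 18396 per the authors' deposited table (1.26 ± 0.06 SE, adjusted p = 5.38e-87). The kallikrein Klk8 had -0.06 ± 0.09 SE per the authors' deposited table, without passing (adjusted p = 0.665). Elane, the elastase that Slpi inhibits, was listed at 0, and the Lcn2 receptor gene Slc22a17 had no adjusted p.

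Pattern recognition receptors, their adaptors and inflammasome genes moved both ways. Of 31 such genes 16 were tested, and 5 rose, 2 fell and 9 did not pass per the authors' deposited table (median 0.05). The shares over all tested genes were 16.7% higher and 16.8% lower. Among those that did not pass, Irak1 (base mean 4.35), Nod1 (8.95) and Traf6 (12.2) were read from low rows of genes with more than 1 transcript. Not passing does not show these genes to be unchanged. Nlrp10, a NOD-like receptor gene, rose 3.15-fold per the authors' deposited table (1.65 ± 0.08 SE, base mean 1921, adjusted p = 1.22e-98). Tlr5, the flagellin receptor, rose 2.21-fold (1.15 ± 0.14 SE, base mean 426) and Ddx58, the RNA sensor RIG-I, 1.79-fold (0.84 ± 0.11 SE, base mean 1236) per the authors' deposited table. Nod2, the receptor for muramyl dipeptide, fell 1.94-fold per the authors' deposited table (-0.96 ± 0.14 SE, base mean 389), and Myd88, the adaptor of most Toll-like receptors, had -0.04 ± 0.08 SE and did not pass (adjusted p = 0.740).

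Cytokine receptors and transcription factors that induce defense genes were mixed as well. Their list also holds inhibitors, such as Nfkbia, Tnfaip3 and Socs3. Of 35 genes 22 were tested, and 7 fell, 3 rose and 12 did not pass per the authors' deposited table (median -0.15). Over all tested genes the shares were 16.8% lower and 16.7% higher. Rela (base mean 6.26) and Il17rc (6.67), which did not pass, were read from low rows of genes with more than 1 transcript and are not thereby shown unchanged. Ifngr1, the ligand-binding chain of the interferon gamma receptor, fell 2.36-fold per the authors' deposited table (-1.24 ± 0.08 SE, base mean 1829, adjusted p = 5.78e-50), and Il17rd, a receptor of the IL-17 family, 2.25-fold (-1.17 ± 0.18 SE, base mean 256). Il22ra1, the IL-22 receptor chain of epithelia, rose 1.65-fold (0.72 ± 0.10 SE, base mean 1634) and Nfkbia, the NF-kappaB inhibitor and target, 1.58-fold (0.66 ± 0.06 SE, base mean 4984) per the authors' deposited table. Il17ra (-0.05 ± 0.09 SE, base mean 1138, adjusted p = 0.754) and Nfkb1 (-0.03 ± 0.07 SE, base mean 3121, adjusted p = 0.830) did not pass in the authors' fit. Il10rb, the other chain of the IL-22 receptor, fell 1.47-fold (-0.55 ± 0.08 SE, base mean 1590). Il17ra, Nfkb1 and Il10rb were named after their values were seen. Tnfrsf1a, the main TNF receptor, had 0.10 ± 0.06 SE per the authors' deposited table, without passing (adjusted p = 0.248). Cebpd fell 1.48-fold per the authors' deposited table (-0.56 ± 0.10 SE, base mean 1605); this C/EBP factor was named after its value was seen, since Cebpa and Cebpb were listed at 0. Stat3 was likewise listed at 0, and Nfkbiz, the IkappaB-zeta gene on which Lcn2 induction depends, had no adjusted p, so these factors could not be compared.

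**Figure D5:**
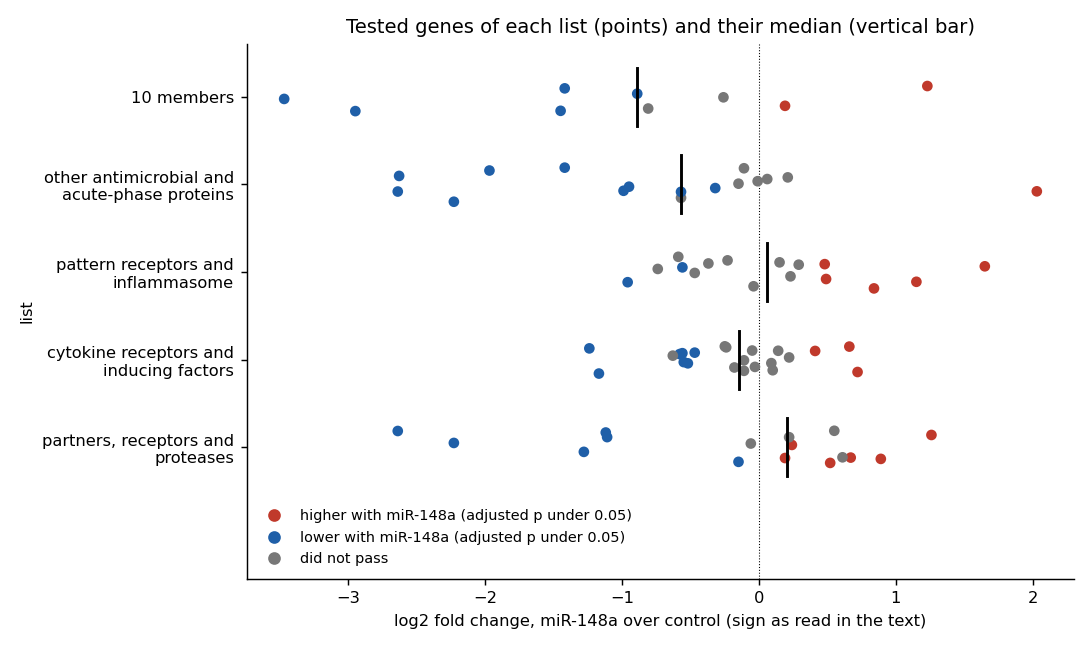
Log2 fold change (horizontal axis, miR-148a over control, sign as read in the text) of every tested gene of 5 lists, with the median as a vertical bar; the vertical scatter within a list has no meaning. The medians are -0.89 for the 9 tested defense genes, -0.57 for other antimicrobial and acute-phase proteins, 0.05 for pattern receptors and inflammasome genes, -0.15 for cytokine receptors and inducing factors and 0.20 for partners and proteases. The list of cytokine receptors and inducing factors also holds inhibitors.

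Lcn2, Camp, Chil1 and Pglyrp1 are also made by neutrophils and macrophages, so markers of those cells are given beside them. Of 12 neutrophil markers 5, among them Ly6g, Elane and Ctsg, were listed at 0, and Mpo and Ngp stood at 0.557 and 0.766 base mean per the authors' deposited table. Ly6g, Csf3r and S100a9, all at 0, have more than 1 RefSeq transcript, so their 0 is not a measure of absence. Elane and Ctsg have 1 each. Of the 4 neutrophil markers with an adjusted p 2 fell, S100a8, which keratinocytes also make, and the chemokine receptor gene Cxcr2 (-1.82 ± 0.22 SE, base mean 160). Ltf and Mmp8 did not pass. Of 8 macrophage markers 7 were tested, with a summed base mean of 716, and 4 fell and 1 rose per the authors' deposited table: Lyz2 (-2.63 ± 0.34 SE, base mean 43.8), C1qa (-2.72 ± 0.39 SE, base mean 19.4), C1qb and Mrc1 were lower, Csf1r (0.76 ± 0.20 SE, base mean 188) was higher, and Cd68, at a base mean of 416, had -0.16 ± 0.14 SE. The pan-leukocyte marker Ptprc was listed at 0 for all 3 of its transcripts, and 1 of the 3 tested leukocyte markers fell (Laptm5). Fibroblast markers were lower too: 4 of 7 tested fell and 3 missed the threshold; their median was -0.42, at a summed base mean of 22853 per the authors' deposited table. Whether changes in the share of these cells take part in the falls of Lcn2, Chil1 and Slpi was not tested. Of 5 tested melanocyte markers 1 fell, and of 2 tested endothelial markers 1 rose and 1 fell. Of 7 tested keratinocyte markers 1 rose, 1 fell and 5 missed the threshold. Krt5 rose (0.49 ± 0.06 SE) at a base mean of 630448 and Dsp fell (-0.18 ± 0.06 SE) at 269425 per the authors' deposited table. Both stood far above every defense gene in counts. Perp, at a base mean of 207541, had -0.15 ± 0.06 SE and missed the threshold (adjusted p = 0.0559). The rows read for Krt14, Col17a1, Itga6 and Itgb4 had base means of only 40.3, 32.0, 6.50 and 4.22. Each of these genes has more than 1 RefSeq transcript, 3 for Krt14, so missing the threshold does not show them steady. All 8 transcripts of Trp63 were at 0.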

How the data were processed

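RNA was sequenced from 3 libraries per group. The deposited expression table has no column per library; DESeq2 and the build mm9 are named in the submitters' processing notes without version or role, while the sources used here name no aligner, counter or annotation. The authors deposited, for each of 42885 transcripts per the file headers, a base mean (a signal, their mean normalized count), a log2 fold change with its SE, a Wald score, and p-values before and after adjustment. The base means sum to 26506058; library depths are unknown. The Wald score equals the log2 fold change over its standard error to within 1.69e-07. A second table deposited by the authors counts changed genes per gene ontology category, with p-values.

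Transcripts were named through RefSeq accessions (42734 matched, GRCm38.p6), and each gene was read from its row of highest base mean. A gene was called at an adjusted p of 0.05 in the authors' deposited table; no new differential test was possible. Coordinates are those of GRCm38.p6 sequence tables, which differ from the authors' build, and are given only for printed sequences. Alignments used Biopython 1.88; adjustment and recentring were tested on simulated data. Genes named from each list are its 4 largest changes at a base mean of at least 100 and its most abundant gene that did not pass, with exceptions stated. The members and lists were chosen with earlier results of these data known. Alternatives changed the threshold, the adjustment, the centring, a minimum change, a minimum base mean and the transcript read.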

Additional observations from a re-analysis of the deposited data

How the results depend on the processing

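No paired analysis was possible because the deposited table has no column per library, and for the same reason no library could be left out. For the defense genes only the recentring alters a log2 fold change, by the all-gene median of -0.01, so none of their signs could change. Reading the second transcript replaced the value of 1 gene in the list of cytokine receptors and factors. The 43 values of the single defense genes under the alternatives leave out genes that a setting removed, such as Defb3 at base means of at least 100. Of these 43 values, 40 kept their side of the threshold. The exceptions were Defb1 (0.19), which no longer counted at an adjusted p of 0.01 or with a change of at least 1.5-fold required, and Defb3 (-0.89) at an adjusted p of 0.01; the number of defense genes that rose is then 1 under either alternative. With at least 1.5-fold required, the pattern receptors have 3 higher and 1 lower, the cytokine receptors and factors 2 lower, and the partners and proteases 3 higher; small changes drop out by construction. The partners and proteases that fell number 5, not 6, under each alternative run on that list: the stricter threshold, adjustment over every transcript, recentring, the minimum change and the minimum base mean. No defense gene had a second transcript with an adjusted p. The medians of genes with the 8-base match and the 7-base TGCACTG kept their side with all annotated UTRs and at base means of at least 100. Depth limits Saa3, Pglyrp1 and Camp.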

Other observations

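The authors' deposited table of gene ontology categories lists 951 categories, of which 8 carry a word for defense against microbes in their name. Only 2 of the 8 held any gene the authors counted as changed: positive regulation of antibacterial peptide production and positive regulation of defense response to virus by host, with 2 of 2 genes each. Their unadjusted p-values of over-representation in that table were 0.0355 and 0.0322, and both had an adjusted p of 1.00; 5 of the 951 categories passed 0.05 after adjustment. The categories are small, with at most 3 genes, and the table does not name the genes.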
